A study of Homo sapiens with 4 samples.

Results

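Voltage-gated and potassium channel genes were described in the established lung cancer cell line H1792, of human origin, after 96 h with the solvent DMSO or with ACBI1. ACBI1 is a PROTAC that recruits the VHL ubiquitin ligase to SMARCA2, SMARCA4 and PBRM1, which are subunits of the SWI/SNF chromatin remodelling complexes. The comparison asks which channel transcripts differed between the DMSO group and the ACBI1 group, with 2 libraries in each. Both groups carry the same genotype, given as WT, and the labels write the dose as 1 mM, which was not checked here. The genes were chosen by symbol: KCN followed by letters and a number, SCN followed by a number and A or B, and CACNA, CACNB or CACNG symbols without a hyphen. Of 61228 gene symbols, 135 matched, and 63 of these had 10 or more counts in at least 2 libraries. A further 55 had lower counts, at most 18 in any library, and 17 had 0 counts in each library. Just inside the rule, with a second-highest count of at most 15, were 7 genes (KCNK2 at 10, KCNE5 at 11, CACNA1A, KCNK3 and SCN11A at 13, SCN2A at 14 and KCNK7 at 15). Just outside it, with a second-highest count of at least 5, were 8 genes (among them KCNJ1 at 8, KCNA7 and KCNH2 at 7, KCNE2, KCNH8 and KCNK9 at 6 and SCN3B at 5).

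As background, these genes encode pores that open in response to membrane voltage, intracellular calcium or sodium, or that leak potassium at rest, and the subunits that sit beside the pores. Potassium channels set the resting membrane potential and repolarise excitable cells, sodium channels carry the upstroke of the action potential, and voltage-gated calcium channels turn depolarisation into calcium entry. Neurons and muscle use the full set, while epithelial and tumour cells express fewer members, and some of these, such as the calcium-activated channels, are known for roles in cell volume, migration and proliferation.

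Counts in genes summed to between 64281850 and 86010100 per library, and the 135 channel genes held 0.0518% to 0.0633% of them. A count of 0 allows a level of up to 0.0335 to 0.0458 CPM (counts per 1000000, a floor of 3 counts), by counting error only. The labels do not say whether the replicates came from separate cultures, so that p-values measure the spread between these libraries. Transcripts of the degrader's targets were present in both groups, and SMARCA2, SMARCA4 and PBRM1 were not called, with log2 changes of -0.40, 0.70 and 0.10. Of 6 epithelial markers, 5 could be tested and 4 of them were lower with ACBI1, with summed levels of 982 and 1035 CPM in DMSO replicates 1 and 2 against 323 and 202 CPM in ACBI1 replicates 1 and 2. Over all genes tested, 6.75% were called higher and 10.6% lower, which is the background for the marker lists here. Lung lineage markers were nearly absent: NKX2-1 and SFTPA1 had 0 counts in each library, and the 6 genes together reached 0.212 to 0.393 CPM. Among 11 neuronal or neuroendocrine markers, INSM1, STMN2 and NEUROD1 had 0 counts in each library, but SYP was called higher, and the summed level was 3.52 to 4.20 CPM with DMSO and 11.8 to 15.4 CPM with ACBI1. Of 3 endothelial markers PECAM1 and VWF were called lower, with sums of 12.6 and 48.5 CPM in DMSO replicates 1 and 2 and at most 0.0458 CPM with ACBI1. The summed level of 9 muscle markers was at most 0.361 CPM in each library and that of 5 leukocyte markers at most 1.00 CPM. In bulk RNA, fewer cells of a type and less RNA per cell cannot be told apart. Marker sums moved with the treatment beside the channel genes, and their part in the results below was not tested.

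Channel genes changed in both directions. Of the 62 that could be tested, 21 were called: 8 rose with ACBI1, among them KCNJ11, SCN8A and the T-type calcium channel gene CACNA1H, and 13 fell, among them the skeletal muscle calcium channel gene CACNA1S, the leak channel gene KCNK3 and the Kv alpha subunit gene KCNA3. A call is a Benjamini-Hochberg adjusted p under 0.05 in edgeR's quasi-likelihood test over all 19159 genes tested. Over all of those, 17.4% were called, 6.75% higher and 10.6% lower, against 33.9% of the tested channel genes. That share is not independent of how members enter the test, since 3 reported members reached 10 counts in the DMSO libraries only and 3 in the ACBI1 libraries only, and such genes had to differ. Among the 48 members with 10 or more counts in all 4 libraries, 14 were called (5 higher, 9 lower), or 29.2%, against 16.6% of all genes with such counts. The median log2 change of the 62 was -0.10, beside 0.01 over all genes tested. Putting CACNA1S and KCNK3, which had no ACBI1 counts, at their bounds could not move this median, since both stay far below it. Both ACBI1 libraries lay on one side of both DMSO libraries in 45 of the 62 (72.6%), including the 21 called, against 63.2% of all genes tested. Without ACBI1 replicate 1, 5 members were called higher and 11 lower.

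**Figure D1:**
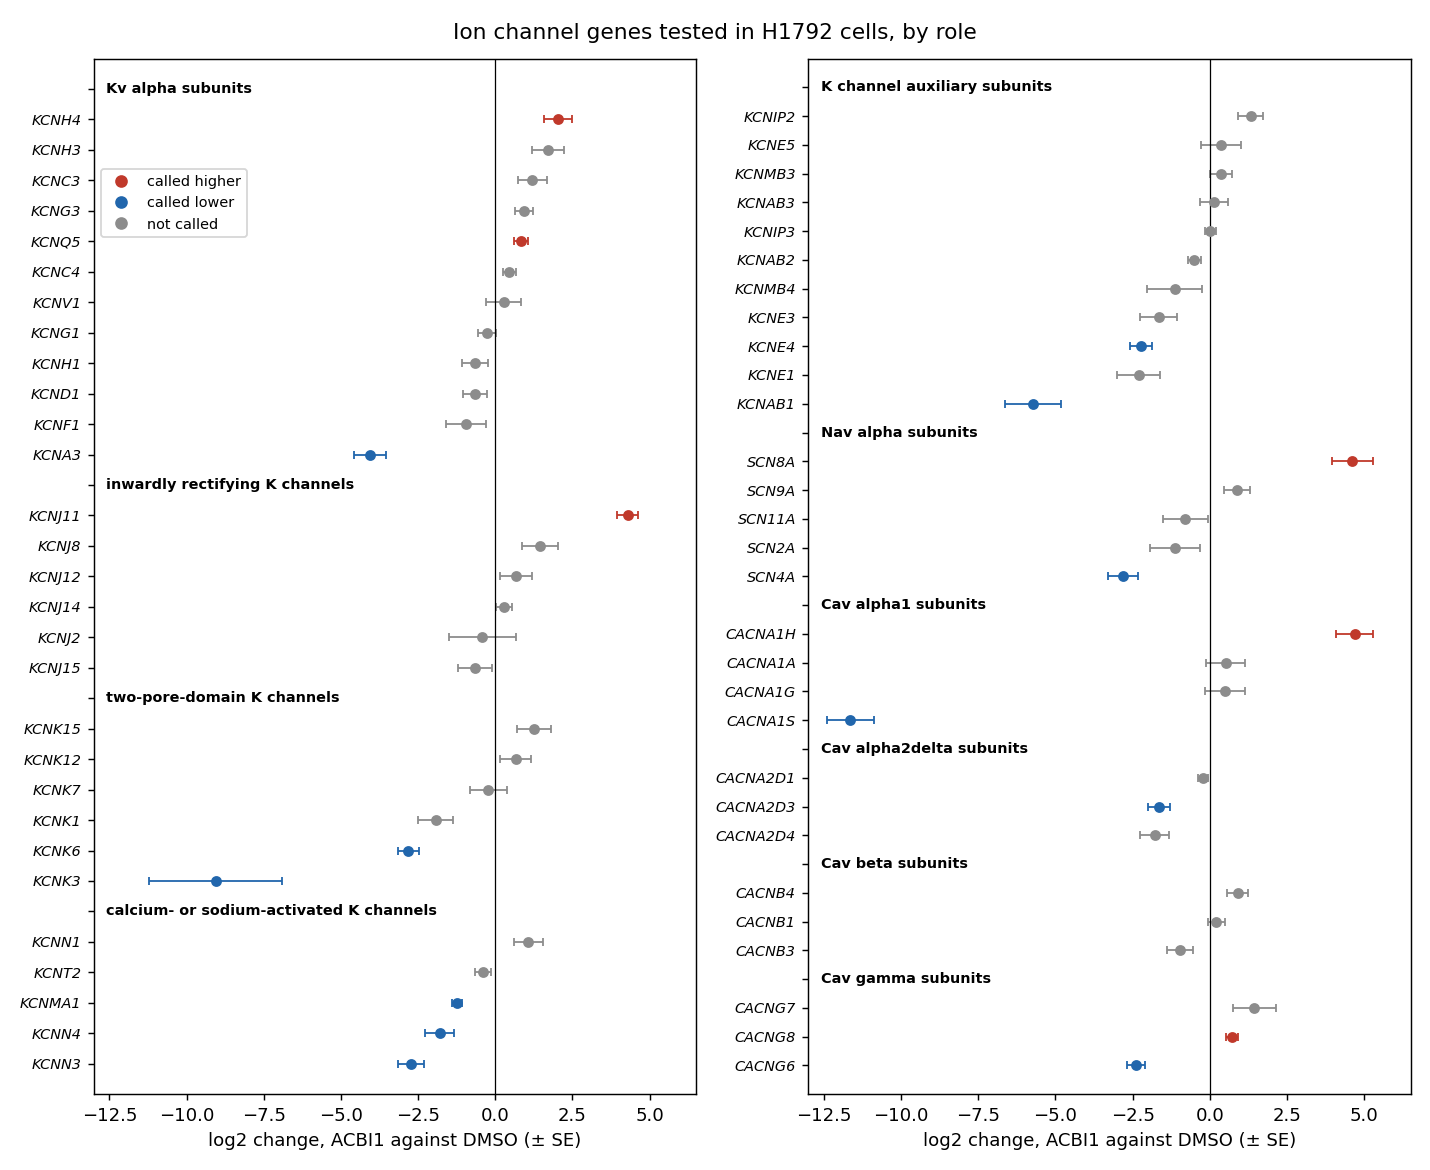
Log2 change with ACBI1 against DMSO for 58 of the 62 tested channel genes (x axis, points with bars of 1 SE from edgeR), grouped by the role of the subunit. Red points mark 6 genes called higher, blue points 12 called lower and grey points 40 not called. Fitted changes go from -11.64 for CACNA1S to 4.69 for CACNA1H. CACNA1S and KCNK3 had 0 counts in both ACBI1 libraries, so only bounds are known, at least 264-fold and 42.5-fold lower.

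**Figure D2:**
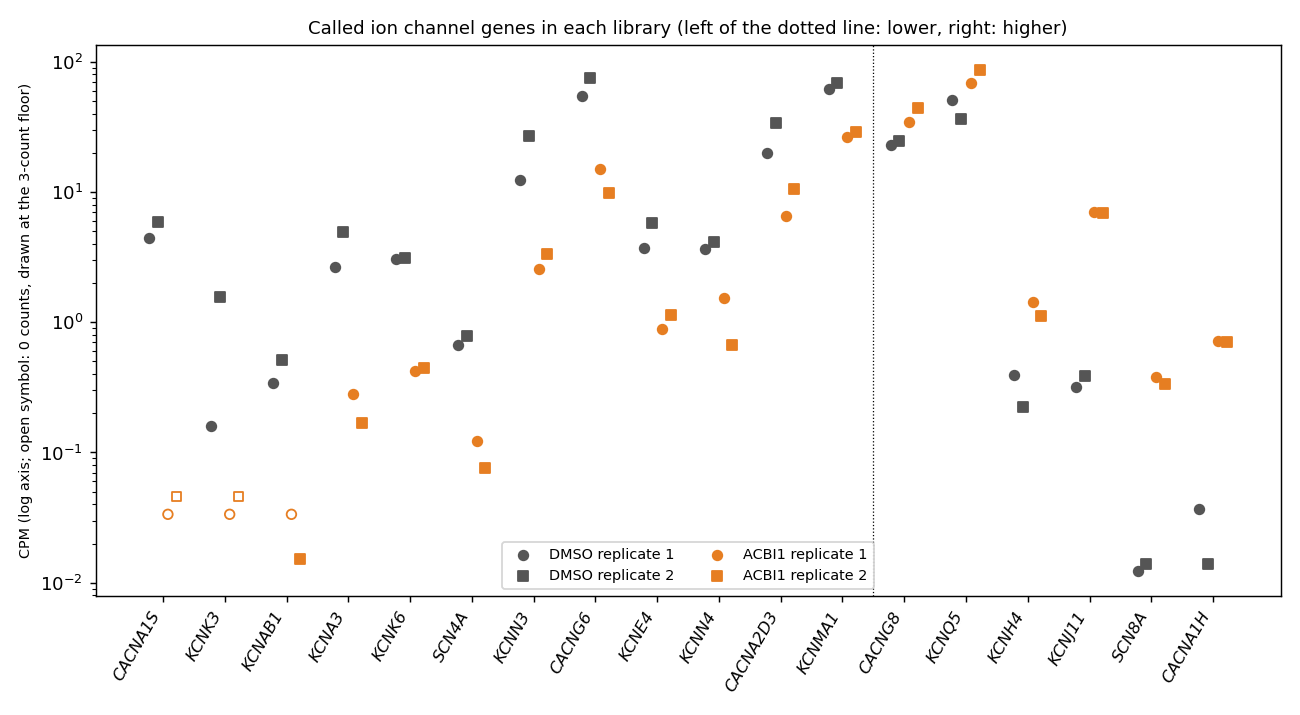
Level of 18 of the 21 called channel genes in each library, in CPM on a log axis, with DMSO in grey and ACBI1 in orange (circles for replicate 1, squares for replicate 2). Open symbols are libraries with 0 counts, drawn at the level of 3 counts; in each gene the 2 groups are separate, and KCNK3 shows the widest gap between DMSO replicates, 0.160 and 1.57 CPM.

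Promoter windows are shown for 5 of the 9 called genes with a single listed window: CACNA1S and KCNK3, which had no ACBI1 counts, SCN8A, which had 2 DMSO counts in all, CACNG6, which fell beside a neighbour that rose, and KCNQ5, which shares its window with the start of a divergent transcript. They are RefSeq windows on GRCh38.p14, from 250 bases before to 50 after the start, in the direction of transcription, with CpG steps in capitals. CACNA1S lies at chr1:201112377-201112676 (minus strand), KCNK3 at chr2:26692472-26692771 (plus), CACNG6 at chr19:53991387-53991686 (plus), KCNQ5 at chr6:72621814-72622113 (plus) and SCN8A at chr12:51590983-51591282 (plus).
CACNA1S: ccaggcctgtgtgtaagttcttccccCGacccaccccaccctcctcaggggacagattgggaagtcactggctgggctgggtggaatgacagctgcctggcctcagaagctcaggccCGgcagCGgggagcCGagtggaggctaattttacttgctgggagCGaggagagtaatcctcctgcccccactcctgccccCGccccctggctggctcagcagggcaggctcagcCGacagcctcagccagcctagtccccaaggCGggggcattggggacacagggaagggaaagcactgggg
KCNK3: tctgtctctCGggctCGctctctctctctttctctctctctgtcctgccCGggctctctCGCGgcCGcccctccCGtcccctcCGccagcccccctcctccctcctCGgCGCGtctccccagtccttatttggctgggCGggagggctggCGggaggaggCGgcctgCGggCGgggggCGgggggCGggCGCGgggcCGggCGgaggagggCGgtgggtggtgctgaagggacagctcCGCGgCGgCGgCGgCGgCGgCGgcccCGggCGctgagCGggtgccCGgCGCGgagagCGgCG
CACNG6: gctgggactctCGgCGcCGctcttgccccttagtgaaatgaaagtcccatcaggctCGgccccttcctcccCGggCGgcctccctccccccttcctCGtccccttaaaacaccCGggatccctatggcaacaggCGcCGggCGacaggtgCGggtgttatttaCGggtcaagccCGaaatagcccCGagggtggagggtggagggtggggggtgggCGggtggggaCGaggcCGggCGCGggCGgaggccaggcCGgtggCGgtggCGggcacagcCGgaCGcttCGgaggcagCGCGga
KCNQ5: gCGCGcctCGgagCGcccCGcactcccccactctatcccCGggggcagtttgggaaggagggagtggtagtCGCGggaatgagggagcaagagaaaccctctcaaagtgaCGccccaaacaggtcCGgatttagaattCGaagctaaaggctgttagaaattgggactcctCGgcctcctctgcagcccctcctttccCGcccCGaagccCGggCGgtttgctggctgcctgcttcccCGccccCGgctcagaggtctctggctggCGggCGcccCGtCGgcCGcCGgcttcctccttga
SCN8A: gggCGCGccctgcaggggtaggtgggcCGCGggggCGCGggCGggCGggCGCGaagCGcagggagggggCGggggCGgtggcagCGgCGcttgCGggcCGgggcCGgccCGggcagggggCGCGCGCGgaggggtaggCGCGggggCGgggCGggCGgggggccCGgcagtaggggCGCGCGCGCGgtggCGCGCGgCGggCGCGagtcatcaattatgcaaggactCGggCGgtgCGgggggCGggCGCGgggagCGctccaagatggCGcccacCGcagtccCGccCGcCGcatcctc

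The windows differed widely in CpG content. CACNA1S held 8 CpG steps and SCN8A 52, with 29 in CACNG6, 24 in KCNQ5 and 39 in KCNK3, against a median of 14 over 35116 such windows. So the genes without ACBI1 counts included one window below that median (CACNA1S) and one above it (KCNK3). On both strands, the letters TGANTCA (an AP-1 motif) were in none of the 5 and in 7.71% of all windows. The letters TTCAGCACC, the left part of the RE1 element bound by the repressor REST, were found once, on the minus strand of KCNK3, with the match beginning 31 bases before the start; 0.376% of all windows hold them. Its right part, GGACAGCG, was in none of the 5 and in 1.63% of all windows. The letters CCAAT were found on the minus strand of CACNA1S, with the leftmost base at -195 and 18 from the start, and on the minus strand of KCNQ5 at -91, and 34.6% of all windows hold them. No match overlapped another. A window is placed at the RefSeq start, which may not be the start used in these cells. For CACNG6, KCNQ5 and SCN8A the gene start in GENCODE 29 lies outside the window.

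Among the Kv alpha subunits, which form the voltage-gated potassium pores, 3 of 14 tested members rose, KCNQ5 and KCNH4 among them, KCNA3 fell and 10 were not called. The background for this class and those below is the share over all genes tested, 6.75% called higher and 10.6% lower. KCNQ5 encodes a subunit of the M-current, a slow potassium current that dampens repeated firing. KCNQ5 was already abundant, at 50.6 and 36.6 CPM with DMSO and 68.7 and 86.9 CPM with ACBI1, a log2 change of 0.84 (SE 0.22, adjusted p 0.0495). The groups did not overlap. The call of KCNQ5 was lost without DMSO replicate 2 (log2 change 0.62, adjusted p 0.140), without ACBI1 replicate 1 (1.00, 0.0576), without ACBI1 replicate 2 (0.65, 0.170) and with limma-voom on all 4 libraries (0.84, 0.0503). The paralogue KCNQ1 had at most 2 counts and KCNQ3 at most 4 in a library.

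The start of KCNQ5-DT, a non-coding transcript annotated at chr6:72614386-72622073 on the minus strand, lies inside the KCNQ5 window printed above. It is no member by its symbol, and it was picked after its values were seen. Its level was 0.491 and 0.598 CPM with DMSO and 3.60 and 10.1 CPM with ACBI1, and it was called higher (log2 change 3.65, SE 0.57, edgeR adjusted p 0.0122). By position, it is KCNQ5-DT itself whose exons cover 3.73% of the exonic length of KCNQ5, on the opposite strand. Since the strand setting of the counting is not given, reads of KCNQ5 and KCNQ5-DT there cannot be told apart.

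KCNH4, a member of the ether-a-go-go-like subfamily found mainly in brain, went from 32 and 16 counts (0.393 and 0.222 CPM) in DMSO replicates 1 and 2 to 127 and 73 counts (1.42 and 1.11 CPM) in ACBI1 replicates 1 and 2. Its log2 change was 2.03 (SE 0.45, edgeR adjusted p 0.0310), with both ACBI1 libraries above both DMSO libraries. The call was lost without DMSO replicate 2 (1.69, adjusted p 0.100) and without ACBI1 replicate 1 (1.85, adjusted p 0.0980). Its paralogue KCNH3 was at 0.712 and 1.85 CPM against 3.25 and 5.14 CPM, a log2 change of 1.71 that was not called (adjusted p 0.0744), although the groups did not overlap. That change was 1.18 without DMSO replicate 1 and 2.55 without DMSO replicate 2. On all 4 libraries, KCNH3 was called higher with no filter (edgeR adjusted p 0.000247) and with DESeq2 (adjusted p 0.00657), but not with limma-voom.

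KCNA3, the Kv channel best known from T lymphocytes, fell from 216 and 356 counts (2.65 and 4.95 CPM) with DMSO to 25 and 11 counts (0.279 and 0.168 CPM) with ACBI1. The log2 change was -4.06 (SE 0.51, edgeR adjusted p 0.00706), and the call held with each library left out. The gene lies at chr1:110672465-110675033 in GENCODE 29. Its neighbours KCNA2, 40990 bases away, and KCNA10 had at most 2 and 4 counts in a library. The beta subunit gene KCNAB1 and the KCNA3 modulator gene KCNE4 fell as well. KCNAB1, a cytoplasmic beta subunit, had 28 and 37 counts with DMSO and 0 and 1 with ACBI1, a DMSO to ACBI1 ratio of 65.7 (95% exact counting interval 11.4 to 2636, adjusted p 0.0128), and its fitted log2 change of -5.72 moved to -4.66 when ACBI1 replicate 1 was left out and to -8.12 when ACBI1 replicate 2 was. KCNE4, a single-pass subunit known to inhibit KCNA3 currents, was at 3.72 and 5.75 CPM with DMSO and 0.894 and 1.13 CPM with ACBI1 (log2 change -2.23, SE 0.37, adjusted p 0.0146).

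The Kv alpha transcript with the highest level per kb of exon was not called. KCNG1 encodes a subunit that forms no channel alone and modifies subunits such as KCNB2, which had 0 counts in each library. KCNG1 was at 173 and 99.5 CPM in DMSO replicates 1 and 2 and at 103 and 123 CPM in ACBI1 replicates 1 and 2, so that the ACBI1 libraries lay between the DMSO libraries (log2 change -0.27, SE 0.28, edgeR adjusted p 0.547). Without DMSO replicate 1 that change was 0.18. KCNC4, a rapidly inactivating A-type channel, was at 16.9 and 13.8 CPM against 19.2 and 23.1 CPM (0.46, adjusted p 0.182). Of the 40 Kv alpha symbols, 14 were reported and 8 had 0 counts in each library.

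Inwardly rectifying channels, which pass potassium near the resting potential, held the most significant rise of a channel gene. KCNJ11, the pore of the ATP-sensitive potassium channel that couples metabolism to insulin release in beta cells, had 26 and 28 counts in DMSO replicates 1 and 2 and 629 and 449 counts in ACBI1 replicates 1 and 2. This is 0.319 and 0.389 CPM against 7.03 and 6.85 CPM, a log2 change of 4.29 (SE 0.34, edgeR adjusted p 0.00231), and the groups were far apart. Leaving out any 1 library gave a log2 change of 4.15 to 4.43, with the call kept each time. The gene lies at chr11:17385859-17389331, and 3166 bases from it in GENCODE 29 is ABCC8, which encodes the sulfonylurea receptor partner of this pore. ABCC8 had 1 count in DMSO replicate 2 and 0 in each other library. The alternative receptor gene ABCC9 was at 1.08 and 0.695 CPM against 1.11 and 0.747 CPM (log2 change 0.06, adjusted p 0.933), with overlapping groups.

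The other 5 tested inward rectifiers were not called. KCNJ8, the second pore gene of this channel type, was at 0.135 and 0.306 CPM against 0.424 and 0.778 CPM, with no overlap between groups (log2 change 1.44, edgeR adjusted p 0.143). KCNJ14, the highest of the class per kb of exon, was at 5.42 and 4.95 CPM with DMSO and 6.22 and 6.33 CPM with ACBI1 (log2 change 0.28, adjusted p 0.489), and exons of other genes cover 25% of its exonic length. KCNJ2, a strong rectifier that stabilises the resting potential, followed the replicate number more than the treatment, with 0.172 and 1.68 CPM in DMSO replicates 1 and 2 and 0.257 and 1.14 CPM in ACBI1 replicates 1 and 2. KCNJ12 has near-identical copies, among them KCNJ18 with at most 1 count in a library, so its reads may be split or lost.

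Tandem-pore (K2P) potassium channels carry background leak currents. Here 2 of 6 tested members fell and none was called higher, beside 10.6% lower over all genes tested. KCNK3, an acid-sensitive leak channel, had 13 and 113 counts in DMSO replicates 1 and 2 and 0 in both ACBI1 libraries, which makes it at least 42.5-fold lower (3 counts over the ACBI1 group, edgeR adjusted p 0.0468). Its DMSO level rested largely on replicate 2, at 1.57 CPM against 0.160 CPM, and the fitted log2 change of -9.06 was -6.67 without that library and -9.89 without DMSO replicate 1. The call was lost without ACBI1 replicate 1 (-8.98, adjusted p 0.0669) and, on all 4 libraries, with edgeR's newer quasi-likelihood fit (-9.03, adjusted p 0.0756). KCNK6 was steadier between replicates. It was at 3.05 and 3.09 CPM with DMSO and 0.424 and 0.442 CPM with ACBI1, a log2 change of -2.82 (SE 0.34, adjusted p 0.00657) that stayed between -2.86 and -2.78 with any 1 library left out. KCNK1 was at 0.884 and 2.03 CPM against 0.268 and 0.503 CPM and was not called (-1.93, adjusted p 0.0671). It was called lower without DMSO replicate 1 (-2.41, adjusted p 0.0162), with no filter (0.000445) and with DESeq2 (0.0168), and it was -1.21 without DMSO replicate 2. KCNK2 passed the reporting rule but not the filter of the test, with 10 and 4 counts against 16 and 8.

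Of 5 tested calcium- or sodium-activated potassium channels, 3 fell and none was called higher, beside 10.6% lower over all genes tested. KCNMA1, the BK channel pore gated by both voltage and calcium, was at 61.8 and 68.9 CPM with DMSO and 26.5 and 28.7 CPM with ACBI1. Its log2 change was -1.24 (SE 0.16, edgeR adjusted p 0.00725), and it stayed between -1.32 and -1.16 with any 1 library left out. KCNN3, a small-conductance channel, was at 12.3 and 26.7 CPM against 2.56 and 3.33 CPM (-2.73, SE 0.42, adjusted p 0.0115), or -2.06 without DMSO replicate 2. KCNN4, the intermediate-conductance channel of epithelial and blood cells, was at 3.64 and 4.14 CPM against 1.54 and 0.671 CPM (-1.80, SE 0.46, adjusted p 0.0452). In these 3 genes each ACBI1 library was below each DMSO library. KCNN4 was -2.53 without ACBI1 replicate 1, and it lost its call without DMSO replicate 2 (-1.71, adjusted p 0.0745), without ACBI1 replicate 2 (-1.34, adjusted p 0.114) and with raw library sizes in place of TMM (-1.71, adjusted p 0.0515).

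The other members of this class were not called. KCNN1, another small-conductance channel, was at 0.332 and 0.626 CPM with DMSO and 1.17 and 0.824 CPM with ACBI1 (log2 change 1.07, edgeR adjusted p 0.169), and the sodium-activated channel gene KCNT2 was at 8.25 and 7.41 CPM against 6.60 and 5.19 CPM (-0.41, adjusted p 0.319). BK beta subunits shift the calcium sensitivity of KCNMA1. Of these, KCNMB4 was at 0.504 and 3.36 CPM in DMSO replicates 1 and 2 and 0.492 and 1.27 CPM in ACBI1 replicates 1 and 2, with overlapping groups, and KCNMB3 shares 47.5% of its exonic length with other genes. KCNMB1 had at most 4 counts in a library, and KCNMB2 had 0 in each.

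Of the 11 tested auxiliary subunits of potassium channels, 2 fell, KCNAB1 and KCNE4 as given above, none was called higher and 9 were not called. Over all genes tested 17.4% were called in either direction, a share near that of this class. KCNAB2, the highest of them per kb of exon, is a beta subunit of Kv channels and was at 41.1 and 55.8 CPM with DMSO and 30.2 and 37.6 CPM with ACBI1. Its groups did not overlap, but the log2 change of -0.51 (SE 0.21) was not called (edgeR adjusted p 0.150). KCNIP3, a calcium-binding partner of Kv channels, was at 16.6 and 19.8 CPM against 19.1 and 17.8 CPM, with overlapping groups (0.02, adjusted p 0.961). That change was -0.10 without DMSO replicate 1 and -0.03 without ACBI1 replicate 1. KCNE1 and KCNE3, single-pass relatives of KCNE4, were at 0.565 and 0.361 CPM against 0.145 and 0.0305 CPM and at 0.282 and 0.431 CPM against 0.156 and 0.0610 CPM, and neither was called (adjusted p 0.0732 and 0.115). KCNE1 was called lower with no filter (edgeR adjusted p 0.00211), but not with DESeq2 or limma-voom. KCNE3 was not called in these settings.

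Of 6 tested Nav alpha subunits, 2 rose and 1 fell, beside 17.4% called in either direction over all genes tested. SCN8A, a sodium channel of neurons, had 1 count in each DMSO library and 34 and 22 in the ACBI1 libraries, an ACBI1 to DMSO ratio of 27.7 (95% exact counting interval 7.32 to 234, adjusted p 0.00969). SCN4A, the sodium channel of skeletal muscle, fell from 54 and 56 counts to 11 and 5 (log2 change -2.81, SE 0.49, adjusted p 0.0161), and without ACBI1 replicate 2 it was -2.54 with an adjusted p of 0.0523. The groups were separate in both genes. SCN9A, known from pain-sensing neurons, was at 1.5 and 1.60 CPM against 1.98 and 3.75 CPM and was not called (0.88, adjusted p 0.185).

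Several sodium channel genes lie in clusters on chromosomes 2 and 3. On chromosome 3, SCN10A had at most 5 counts in a library, and SCN11A, 29551 bases from it, was at 0.196 and 0.181 CPM with DMSO and 0.0447 and 0.183 CPM with ACBI1 and was not called (edgeR adjusted p 0.497). In the chromosome 2 cluster SCN2A was at 0.123 and 0.612 CPM against 0.123 and 0.214 CPM (not called), and SCN1A, SCN3A and SCN7A had at most 2 counts in a library.

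Among the Cav alpha1 subunits, the pores of the calcium channels, the leading transcript differed between groups. CACNA1S, the L-type channel that serves as the voltage sensor of skeletal muscle, had 358 and 426 counts (4.40 and 5.92 CPM) in DMSO replicates 1 and 2 and 0 in both ACBI1 libraries. It was at least 264-fold lower with ACBI1 (3 counts over the ACBI1 group, edgeR adjusted p 0.00255), and its call held with each library left out. It lies at chr1:201039512-201112566, and no other gene's exons overlap it in GENCODE 29. CACNA1H, a T-type channel that opens near the resting potential, had 3 and 1 counts with DMSO and 64 and 46 counts (0.715 and 0.702 CPM) with ACBI1, a log2 change of 4.69 (SE 0.60, adjusted p 0.00736). That change was 5.51 without DMSO replicate 1 and 4.21 without DMSO replicate 2. Another T-type gene, CACNA1G, was at 0.209 and 0.667 CPM against 0.413 and 0.824 CPM and was not called (0.49, adjusted p 0.648). It was -0.12 without DMSO replicate 1 and -0.08 without ACBI1 replicate 2. The L-type genes of heart and brain, CACNA1C and CACNA1D, had at most 1 and 9 counts in a library.

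The subunits that accompany the calcium pores had higher summed levels per kb of exon than the pores: with DMSO, alpha2delta subunits reached 11 and 15 CPM per kb, beta subunits 2.17 and 2.42 and gamma subunits 33 and 47, against 0.765 and 1.05 for alpha1 subunits. CACNA2D1, an extracellular alpha2delta subunit that raises the number of channels at the surface and binds gabapentin, was at 58.9 and 68.7 CPM with DMSO and 51.1 and 58.5 CPM with ACBI1 (log2 change -0.22, edgeR adjusted p 0.401). The paralogue CACNA2D3 fell from 19.9 and 33.7 CPM to 6.57 and 10.5 CPM (-1.65, SE 0.35, adjusted p 0.0272). The call of CACNA2D3 was lost without ACBI1 replicate 1 (-1.35, adjusted p 0.0682). CACNA2D4 was at 1.19 and 1.00 CPM against 0.424 and 0.198 CPM and was not called (-1.79, adjusted p 0.0528). It was called lower with no filter (adjusted p 0.00201), DESeq2 (0.0203), limma-voom (0.0475) and edgeR's newer fit (0.0481), and leaving out ACBI1 replicate 1 or 2 gave -2.45 or -1.37, neither called. The cytoplasmic beta subunits, which escort the pore to the membrane, were not called in any of 3 tested genes by edgeR, DESeq2 or limma-voom, and 1 had an unadjusted p under 0.05. In other edgeR settings CACNB3 was called lower, with no filter (log2 change -0.97, adjusted p 0.0361) and without DMSO replicate 1 (-1.44, adjusted p 0.0225). It was -0.24 without DMSO replicate 2. CACNB1 was at 10.9 and 7.16 CPM against 11.4 and 9.50 CPM, and CACNB3 at 4.09 and 9.41 CPM against 3.23 and 3.71 CPM.

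The Cav gamma genes CACNG7, CACNG8 and CACNG6 lie side by side on chromosome 19 and in the same orientation, at chr19:53909335-53943941, chr19:53963040-53990215 and chr19:53992288-54012669. CACNG7 and CACNG8 encode proteins of the TARP type, known to traffic AMPA-type glutamate receptors, while CACNG6 is a relative of the skeletal muscle gamma subunit. In GENCODE 29 only 2072 bases separate the end of CACNG8 from the start of CACNG6, yet CACNG8 rose and CACNG6 fell. The RefSeq window of CACNG6 printed above lies before that start, within this gap. CACNG6 was at 54.9 and 74.9 CPM with DMSO and 15 and 9.78 CPM with ACBI1, a log2 change of -2.39 (SE 0.28, edgeR adjusted p 0.00571) that held with each library left out, from -2.73 to -2.12. CACNG8 was at 23.0 and 24.8 CPM against 34.7 and 44.5 CPM, a log2 change of 0.73 (SE 0.19, adjusted p 0.0457). The groups were separate in both genes. The call of CACNG8 was lost without DMSO replicate 1 (0.68, adjusted p 0.0952), without DMSO replicate 2 (0.78, adjusted p 0.0798), without ACBI1 replicate 1 (0.90, adjusted p 0.0626), without ACBI1 replicate 2 (0.53, adjusted p 0.227) and with limma-voom (0.71, adjusted p 0.0538). CACNG7 was at 1.98 and 10.6 CPM in DMSO replicates 1 and 2 and 15 and 19.1 CPM in ACBI1 replicates 1 and 2. Its groups did not overlap, but the DMSO libraries differed by 5.36-fold and it was not called (1.44, adjusted p 0.207). The change was 0.68 without DMSO replicate 1 and 3.10 without DMSO replicate 2. On all 4 libraries, CACNG7 was called higher with no filter (edgeR adjusted p 1.14e-05), but not with DESeq2 or limma-voom. The other cluster of gamma genes, CACNG1, CACNG4 and CACNG5 on chromosome 17, had at most 3 counts in a library.

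Levels were compared between genes as CPM per kb of merged exons in GENCODE 29, which understates genes with many alternative exons. On this scale CACNG6 was the highest channel gene with DMSO, at a mean of 35 CPM per kb, followed by KCNG1 at 25.1, CACNA2D1 at 7.09, KCNQ5 at 5.76 and CACNA2D3 at 5.73. With ACBI1 the order was KCNG1 at 20.8, KCNQ5 at 10.3, CACNG6 at 6.69, CACNA2D1 at 6.08 and CACNG7 at 6.07. Summed over a class, Cav alpha1 subunits went from 0.765 and 1.05 CPM per kb with DMSO to 0.148 and 0.171 with ACBI1, and inward rectifiers from 1.61 and 1.88 to 4.11 and 4.31. Nav alpha subunits went from 0.298 and 0.333 to 0.619 and 0.625 CPM per kb, while the sums of Kv alpha subunits overlapped between groups, at 46.6 and 29.2 against 36.4 and 41.4. The K2P and Cav beta sums overlapped as well. Sums of calcium- or sodium-activated potassium channels, potassium channel auxiliary subunits, alpha2delta subunits and gamma subunits were also lower in both ACBI1 libraries. These sums are set by a few genes each and carry no test, since 2 libraries against 2 cannot give an exact 2-sided permutation p below 0.333.

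**Figure D3:**
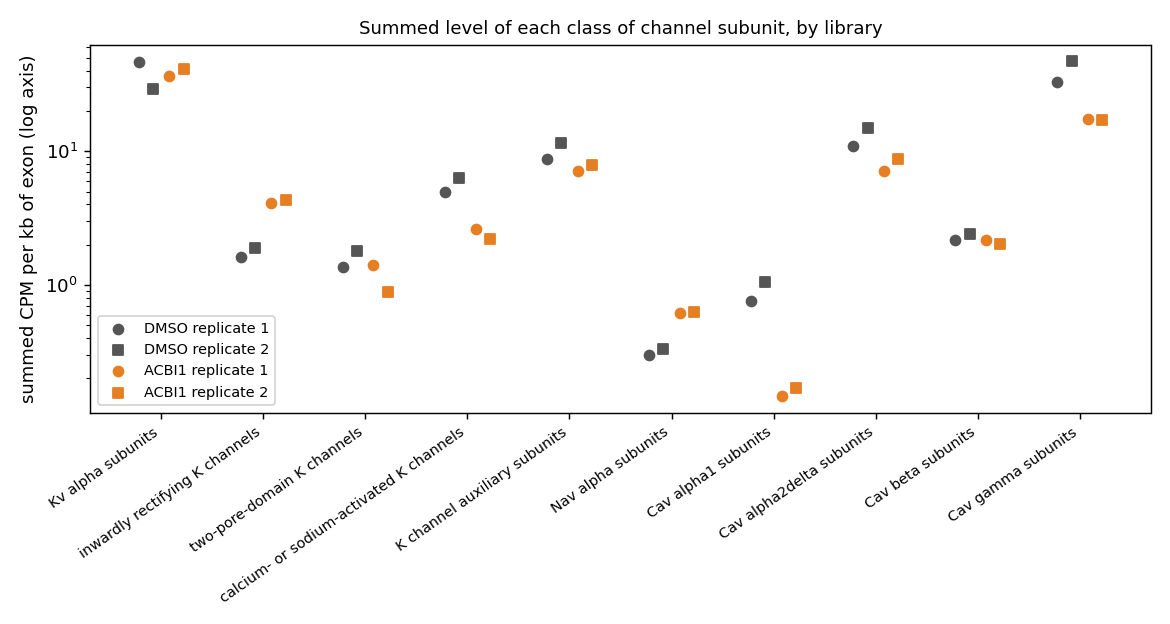
Summed level of 10 classes of channel subunit in each library, in CPM per kb of exon on a log axis (DMSO in grey, ACBI1 in orange, circles for replicate 1, squares for replicate 2). Inward rectifiers and Nav alpha subunits sit higher in both ACBI1 libraries. Calcium- or sodium-activated potassium channels, potassium channel auxiliary subunits and Cav alpha1, alpha2delta and gamma subunits sit lower. The Kv alpha, two-pore-domain (K2P) and Cav beta sums overlap.

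Some channel genes differed more between the DMSO replicates than between treatments. KCNJ2 was 9.78-fold higher in DMSO replicate 2 than in replicate 1, and KCNMB4 6.68-fold. KCNK3 had a DMSO gap of 9.84-fold. Its bound of at least 42.5-fold between treatments pools both DMSO libraries and rests largely on DMSO replicate 2. Over 2-fold differences were counted on edgeR's log2 CPM scale, which shrinks differences at low counts, unlike the CPM ratios above. Between DMSO replicates they were found in 16 of 62 tested members, of which 2 were called (KCNK3 and KCNN3). The called gene CACNA1H, with 3 and 1 DMSO counts, had a CPM ratio of 0.377 but only -0.66 on that log2 scale. Between ACBI1 replicates, over 2-fold differences were found in 11 members. Replicate 2 was also the higher ACBI1 library for KCNJ2 and KCNMB4. Across the 62 genes, which are not independent and share their libraries, Pearson's r between these differences in the 2 groups was 0.48, against 0.44 over all genes tested. What the same replicate number has in common is not given in the labels.

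**Figure D4:**
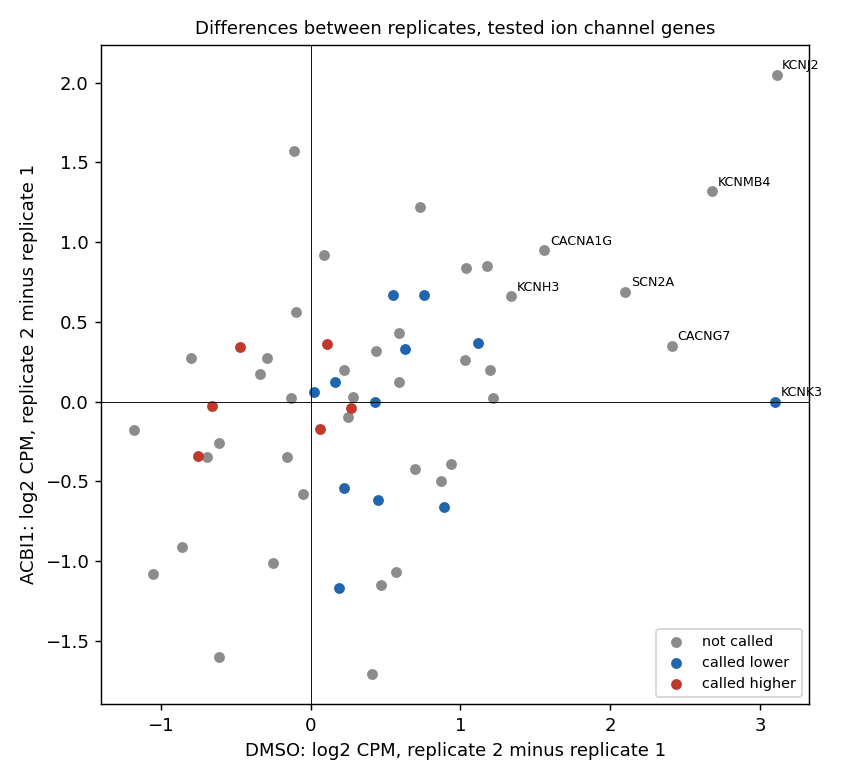
Difference between replicates in edgeR's log2 CPM (shrunken at low counts), replicate 2 minus replicate 1, with DMSO on the x axis and ACBI1 on the y axis, for 58 of the 62 tested channel genes (grey not called, blue called lower, red called higher). KCNJ2, KCNMB4, SCN2A and CACNG7 lie far to the right, at 3.11, 2.68, 2.1 and 2.41 on the x axis, and KCNK3 is the called gene with the widest DMSO difference.

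Genes that act with these channels were followed in lists chosen beside the members. Of 32 other subunits and regulators, 23 were tested, 3 rose and 4 fell, with a median log2 change of 0.06. Over all genes tested 6.75% were called higher and 10.6% lower, with a median of 0.01, which is the background for each of these lists. RRAD, a small GTPase that inhibits voltage-gated calcium channels, fell from 138 and 226 CPM to 4.23 and 5.20 CPM (log2 change -5.27, edgeR adjusted p 0.00141), with separate groups. KCTD12, an auxiliary subunit of GABA-B receptors, rose from 5.94 and 4.02 CPM to 37.0 and 35.5 CPM (2.86, adjusted p 0.00268). DPP6, a partner of Kv channels of the KCND family, fell from 12 and 15 counts to 2 in each ACBI1 library (-2.70, adjusted p 0.0433). REST, the repressor of neuronal channel genes, and its cofactors were not called in any of 11 tested genes by edgeR, DESeq2 or limma-voom, and 2 had an unadjusted p under 0.05.

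Of 24 tested genes for other cation channels, 3 fell and none was called higher (median log2 change -0.29), beside 10.6% lower over all genes tested. CATSPER1, a calcium channel of sperm, had 108 and 136 counts with DMSO and 0 in both ACBI1 libraries, at least 82.2-fold lower (edgeR adjusted p 0.00479), and TRPV4 (-2.25) and the endolysosomal channel gene TPCN1 (-1.65) were lower. Among 19 tested anion channel genes, 1 rose and 3 fell, beside 17.4% called in either direction over all genes tested, with BEST1 at -1.97, CLIC4 at -1.03 and CLIC1 at -1.01. Ion pumps and cotransporters held 1 rise and 4 falls among 15 tested genes. ATP2A3 (-2.35) and ATP1B1 (-1.60) were among those that fell. Both DMSO libraries stood apart from both ACBI1 libraries in each gene named here.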

How the data were processed

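RNA-seq counts from 4 libraries were used, 2 DMSO and 2 ACBI1, grouped and numbered by their titles. The deposited counts are raw whole-number reads for each symbol, as htseq-count writes them; per the submitters' processing notes, TopHat2 2.1.1, HTSeq 0.11.0 and hg38 were used. The annotation and strand setting are not given in the sources used here. Of the reads listed, 84.6% to 86.1% were in genes; the rest (no gene, ambiguous or not unique) were left out. If strand was not used, reads of overlapping genes cannot be told apart.

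Genes were filtered with edgeR's filterByExpr (minimum count 10, minimum total 15), scaled by TMM (factors 0.958 to 1.04) and tested with edgeR 4.0.16 (glmQLFit, glmQLFTest) in R 4.3.3 on treatment alone, with Benjamini-Hochberg adjustment over 19159 genes. CPM use TMM-scaled library sizes. The SE is the log2 change divided by the square root of F. Replicates differed beyond sampling noise (chi-square per degree of freedom 158 and 102). The scripts were tested on simulated data.

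Members and lists were chosen with earlier results of these data known. The text names each called member, the most abundant of each class, uncalled members averaging 5 CPM or more, and at most 3 called genes of each list. Others, such as partner subunits and neighbours, were picked after their values were seen. Some genes that this rule names are not reported here but stay in the counts. Positions and exon overlap come from GENCODE 29 (GRCh38), where all 135 symbols matched. RefSeq promoter windows (GRCh38.p14) were listed for 97 members. The alternatives were other scalings, filters, DESeq2 1.42.0, limma-voom 3.58.1, other edgeR fits, stricter thresholds, the replicate block and each library left out, which leaves 1 library in a group, assumed to vary like the other group.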

Additional observations from a re-analysis of the deposited data

How the results depend on the processing

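Of the 21 called genes, 16 kept their call and direction in each of the 11 other fits on all 4 libraries that tested them, and 13 also with each library left out. The numbers called were 8 higher and 13 lower in the main analysis. They were 4 and 10 with a filter of a mean of at least 1 CPM (which tests 33 members), and 4 and 5 at an adjusted p under 0.01. With no filter they were 12 and 19 (118 members tested), with CACNA2D4, CACNB3, CACNG7, KCNE1, KCNH3, KCNH8, KCNJ8, KCNK1, KCNK15 and KCNMB4 added. With DESeq2 they were 10 and 15, with CACNA2D4, KCNG3, KCNH3 and KCNK1 added. With 1 library left out they ranged from 5 to 7 higher and from 10 to 16 lower. The median log2 change went from -0.17 to 0.18 with 1 library left out and from -0.11 to 0.01 otherwise.

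No label ties equal replicate numbers to a common culture or day, and 2 pairs do not establish a link. With the replicate block, 17 members were called higher and 19 lower, including the same 21 and also CACNB3, CACNB4, CACNA2D4 and KCNK1, while 41.3% of all genes were called; the differences between replicates of the 2 groups correlated at 0.44 over all genes.

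Direction reversed in 14 members, none of them called, and only with 1 library left out. For the 13 given here, with each library left out in turn, the log2 change ran from -0.30 to 0.98 for CACNA1A, -0.12 to 1.55 for CACNA1G, -0.06 to 0.55 for CACNB1, -0.34 to 0.85 for KCNAB3, -0.16 to 1.13 for KCNE5, -0.62 to 0.18 for KCNG1 and -0.10 to 0.15 for KCNIP3. It ran from -1.16 to 0.13 for KCNJ15, -1.85 to 2.0 for KCNJ2, -0.69 to 0.40 for KCNK7, -1.98 to 0.79 for KCNMB4, -0.49 to 0.78 for KCNV1 and -1.88 to 0.43 for SCN2A. The cause was not tested. Depth limits 29 of the 62 tested members, which had a mean under 1 CPM.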

Other observations

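Transcripts with channel symbols outside the pattern, such as antisense and divergent RNAs, were mostly rare. KCNQ5-DT, given above, was the only one called by edgeR, and KCNC4-DT was the only other with an unadjusted p under 0.05. KCNQ1OT1, the non-coding transcript of the imprinted KCNQ1 locus, had 751 and 723 counts with DMSO and 723 and 600 with ACBI1 (log2 change -0.16, edgeR adjusted p 0.664), while KCNQ1 itself had at most 2 counts in a library. KCNJ2-AS1 had 7 and 53 counts with DMSO and 8 and 22 with ACBI1, higher in replicate 2 of both groups, as was KCNJ2 (14 and 121 against 23 and 75 counts). KCNC4-DT had 13 and 11 counts against 2 and 3 (log2 change -2.20, adjusted p 0.0722), and KCNC4 had 1379 and 995 against 1715 and 1512. KCNK15-AS1 had 15 and 2 counts against 36 and 19, beside 91 and 38 against 240 and 82 for KCNK15; neither was called.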
